A study of Caenorhabditis elegans with 4 samples.

Results

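The broad REC-8 regions are the stretches of the C. elegans nuclear genome in which REC-8 binding was listed over 1000 bp or more without a break. They were chosen by width alone, from the series-level list of REC-8 ChIP peaks, and numbered 403 of the 7280 regions on the 6 nuclear chromosomes (5.54%). The other 6877 regions were narrower. The data are 2 libraries of DNA immunoprecipitated with a rabbit antibody against REC-8, with a peak list for each, and 2 libraries of input DNA with no list of their own. All 4 libraries were made from hermaphrodites carrying the allele fem-2(b245)III (strain fem-2(b245)) at 20 °C, with no group of another genotype, stage or temperature. The stage label is young adult with a germline, while the growth protocol describes gravid adults from synchronised cultures. Whole worms were used, so somatic nuclei entered the extracts beside the germ cells. The labels do not say whether the replicates came from separate cultures, and their spread may be technical.

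REC-8 is a meiotic kleisin, the subunit that closes the cohesin ring. Cohesin holds sister chromatids together from premeiotic replication and anchors chromatin loops to the axis from which the synaptonemal complex is built, and in C. elegans REC-8 works beside the kleisins COH-3 and COH-4. Cohesin can move along DNA after loading, and in other organisms it has been found both at sharp sites and in wider domains. FEM-2 is a phosphatase of the sex determination pathway, needed for male development.

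Width was the rule, and score, a measure of peak strength that the authors deposited without naming its scale, comes from the same peak calls. Values of width and score are therefore descriptions and were not tested. The replicate lists come from the only 2 REC-8 libraries of the series, so support by them is not independent of the series-level calls and is described in the same way. Intervals are 95% Wilson intervals and cover counting error only. Read depth is unknown.

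The broad regions were few but covered a large part of the bound sequence. Together they spanned 0.728 Mb, which was 24.0% of all bases in the series-level list and 0.727% of the nuclear chromosomes, against 2.30 Mb for the narrower regions. Their median width was 1419 bp (quartiles 1125 and 1896 bp), against 282 bp (quartiles 200 and 412 bp) for the narrower regions. Most lay close to the threshold, with 137 regions under 1200 bp, 90 from 1200 to under 1500 bp, 90 from 1500 to under 2000 bp, 49 from 2000 to under 3000 bp and 37 of 3000 bp or more. The threshold falls within a continuous range of widths. The narrowest members were I:4171826-4172827 (1002 bp, score 84.51) and III:9826972-9827973 (1002 bp, score 12.04). Just outside it were I:4911467-4912465 (999 bp, score 17.19) and IV:4897730-4898727 (998 bp, score 75.46). Coordinates are in WormBase build WS220.

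Broad regions had high scores as a class. Their median score was 35.4 (quartiles 16.2 and 98.6, range 3.70 to 199.82), against 7.38 (quartiles 4.44 and 14.6, range 1.30 to 193.65) for the narrower regions. The median broad region stood at the 88.0 percentile of the whole list. The highest score decile held 179 of the 403 broad regions (44.4%, interval 39.6 to 49.3%), against 549 of the 6877 narrower regions (7.98%) and 10.0% of all regions. Read the other way, 24.6% of the regions in the highest decile were broad, 12.7% of those in the ninth and 0.69% of those in the fourth, and the lowest decile held 0 broad regions among 729 (interval up to 0.52%). Of the 10 highest-scoring regions of the list, 8 were broad, and of the highest 100, 60 were.

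**Figure D1:**
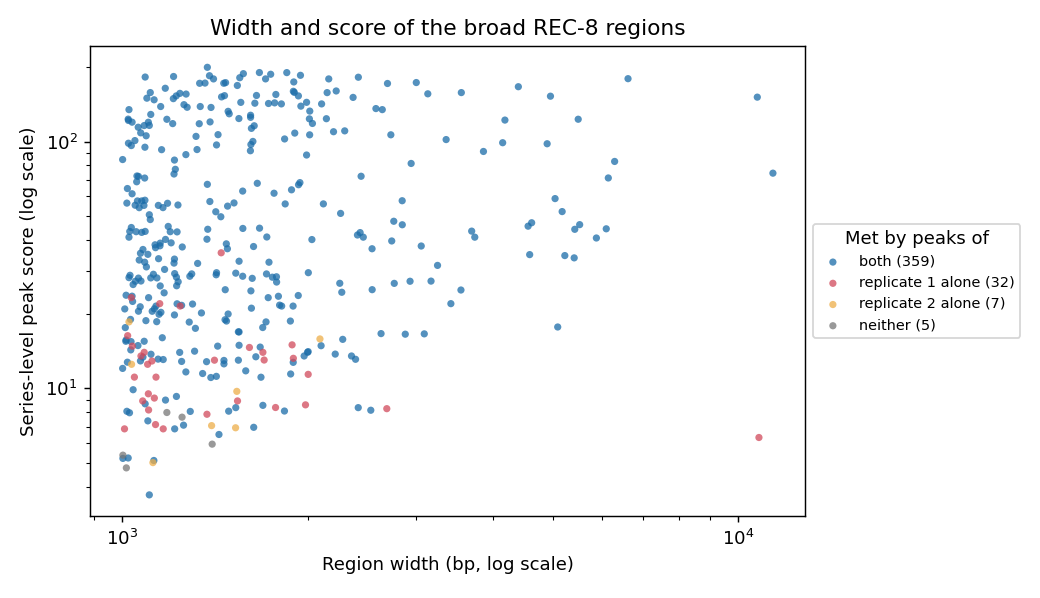
Width (bp, log scale) and series-level score (log scale) of each of the 403 broad REC-8 regions, with 1 point per region and colours for the replicates whose peaks met it. Scores from 3.70 to 199.82 occurred, and the 5 regions met by neither replicate lie at scores of 7.98 or less.

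Among the broad regions themselves, greater width went with only slightly higher score. Spearman's rho between width and score was 0.215 over the 403 broad regions, against 0.619 over the 6877 narrower ones; the points share the same libraries and calls, and the range of widths was set by the rule. The median score was 46.9 for the regions of 3000 bp or more (quartiles 34.8 and 101.8) and 28.0 for those under 1200 bp (quartiles 14.0 and 56.2). None of the 10 widest broad regions was among the 10 broad regions with the highest scores. Those 10 highest were 1090 to 2417 bp wide. Of the 10, 6 lay on X, which held 64 of all 403 broad regions (15.9%). Replicate 1 peaks covered 63.3 to 96.6% of the bases of these 10 regions and replicate 2 peaks 75.7 to 100%. The 10 widest had scores from 6.32 to 179.72.

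Peaks of both replicates met nearly all broad regions. An overlap of 1 bp or more with a peak of each replicate was found for 359 of the 403 broad regions (89.1%, interval 85.7 to 91.8%), against 1762 of the 6877 narrower ones (25.6%, interval 24.6 to 26.7%) and 29.1% of all regions. Neither replicate met 5 broad regions (1.24%), against 3245 narrower ones (47.2%) and 44.6% of all regions. A wider region offers more bases to be met. The midpoint, added after seeing the data, is a single base at any width. There, 284 broad regions (70.5%, interval 65.8 to 74.7%) lay in a peak of each replicate, against 1675 narrower ones (24.4%) and 26.9% of all regions. This measure is not free of width either, since a peak over part of a wide region can miss its midpoint.

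Support also went with score, and the contrast between the width classes differed from stratum to stratum. In score deciles 5 to 7, both replicates met 42 of 70 broad regions (60%, interval 48.3 to 70.7%), against 225 of 2116 narrower ones (10.6%, interval 9.39 to 12.0%). Scores within these deciles were not alike, with 13, 23 and 34 broad regions in deciles 5, 6 and 7, against 713, 702 and 701 narrower ones. In decile 7 alone the counts were 24 of 34 (70.6%, interval 53.8 to 83.2%) and 139 of 701 (19.8%, interval 17.05 to 22.9%). In decile 8 the counts were 45 of 53 broad regions (84.9%, interval 72.95 to 92.2%) and 348 of 672 narrower ones (51.8%, interval 48.0 to 55.5%). In decile 9 they were 89 of 93 broad regions (95.7%, interval 89.5 to 98.3%) and 579 of 638 narrower ones (90.75%, interval 88.2 to 92.8%), and the intervals overlapped. In the highest decile all 179 broad regions were met by both, and so were 548 of the 549 narrower ones. At the midpoint the order of the classes changed with score. In deciles 5 to 7, 32.9% of the broad (interval 23.0 to 44.5%) and 8.88% of the narrower regions (interval 7.75 to 10.2%) had their midpoint in a peak of each replicate. In decile 7 alone these were 35.3% (interval 21.5 to 52.1%) and 16.7% (interval 14.1 to 19.6%). In decile 8 the shares were 58.5% of the broad regions (interval 45.1 to 70.7%) and 47.5% of the narrower ones (interval 43.7 to 51.2%), with overlapping intervals. In decile 9 the broad regions were lower, with 74.2% (interval 64.5 to 82.0%), against 89.5% of the narrower ones (interval 86.9 to 91.65%). The highest decile had the same order, with 88.3% of the broad regions (interval 82.7 to 92.2%) and 99.3% of the narrower ones (interval 98.1 to 99.7%). In 21 of the 179 strongest broad regions the midpoint thus lay outside the peaks of at least 1 replicate, against 4 of the 549 narrower ones. A wide region leaves more room for a peak to miss its midpoint, so nothing is read from this change of order.

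**Figure D2:**
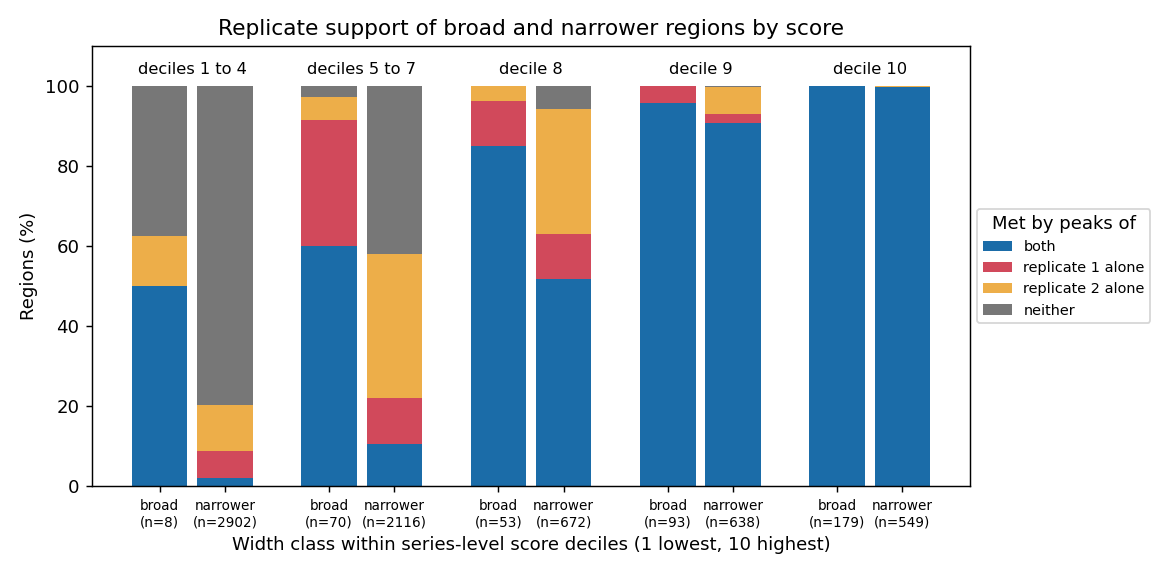
Share of regions (%) met by peaks of both replicates, of replicate 1 alone, of replicate 2 alone or of neither, for broad and narrower regions within classes of series-level score deciles, with the number of regions under each bar. In deciles 5 to 7 both replicates met 60% of the broad and 10.6% of the narrower regions, in decile 9 95.7% and 90.75%, and in the highest decile 179 of 179 and 548 of 549. Within deciles 5 to 7 the broad regions lean to the higher scores.

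Where a single replicate supported a region, it was mostly replicate 1 for the broad regions and mostly replicate 2 for the narrower ones. Replicate 1 alone met 32 broad regions (7.94%, interval 5.68 to 10.99%), against 525 narrower ones (7.63%), near the 7.65% of all regions. Replicate 2 alone met 7 broad regions (1.74%, interval 0.840 to 3.54%), against 1345 narrower ones (19.6%, interval 18.6 to 20.5%) and 18.6% of all regions. The same contrast was seen within deciles 5 to 7. Of 70 broad regions there, replicate 1 alone met 22 and replicate 2 alone met 4. Of 2116 narrower ones they met 243 and 758, and of all 2186 regions 265 and 762. Asked at the midpoint, 80 broad regions (19.85%) lay in a peak of replicate 1 alone and 17 (4.22%) in a peak of replicate 2 alone. For the narrower ones the counts were 520 (7.56%) and 1265 (18.4%), and the shares of all regions were 8.24% and 17.6%. The lists themselves differ in shape. Replicate 1 had fewer peaks but more wide ones, 343 of 2664 at 1000 bp or more (12.9%), while replicate 2 had 226 of 3669 (6.16%). The part of this difference in the support of the broad regions was not tested.

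The 32 regions met by replicate 1 alone had scores of 6.32 to 35.41 (median 11.95), and the 7 met by replicate 2 alone had 5.00 to 18.58 (median 9.72), against a median of 41.8 for the 359 met by both. The 5 regions met by neither had scores of 4.76 to 7.98. They were X:293765-295164 (1400 bp, score 5.94), IV:15473240-15474490 (1251 bp, 7.64), I:1051738-1052919 (1182 bp, 7.98), V:14411670-14412685 (1016 bp, 4.76) and IV:8914959-8915961 (1003 bp, 5.36).

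Replicate 1 peaks filled the broad regions more completely than replicate 2 peaks. The median share of a broad region's bases under peaks was 89.2% in replicate 1 (quartiles 70.1 and 97.8%) and 71.9% in replicate 2 (quartiles 43.7 and 90.6%). Over all bases of the broad regions the shares were 83.9% and 67.2%, against 40.9% and 48.1% for the narrower regions. The latter include 4590 narrower regions with no replicate 1 peak and 3770 with no replicate 2 peak. Among regions that a replicate met, the order of the classes was the reverse. The median share was then 89.7% and 77.1% for the broad regions, against 94.8% and 92.7% for the narrower ones. Among the 359 broad regions met by both replicates, replicate 1 covered more bases in 238, replicate 2 in 106, and 15 were covered alike. Among the 1762 narrower regions met by both, these counts were 745, 619 and 398. Peaks covered 50% or more of the bases in replicate 1 but not in replicate 2 in 98 broad regions (24.3%), against 538 narrower ones (7.82%) and 8.74% of all regions. The reverse was found in 16 broad regions (3.97%), against 1255 narrower ones (18.25%) and 17.46% of all regions. Neither replicate covered 50% in 22 broad regions (5.46%), against 3454 narrower ones (50.2%) and 47.75% of all regions. Each replicate covered 50% or more in 267 broad regions (66.25%), against 1630 narrower ones (23.7%) and 26.06% of all regions.

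**Figure D3:**
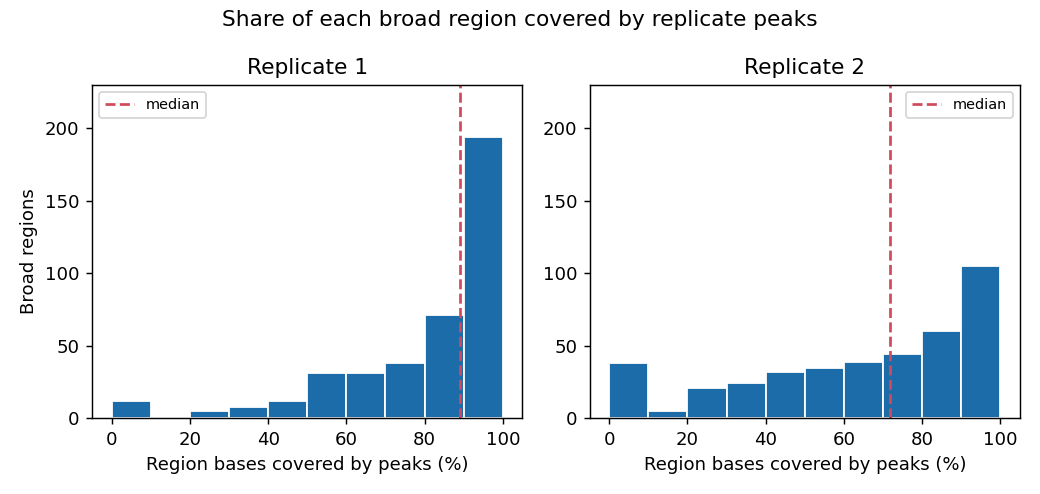
Number of broad regions by the share of their bases (%) under peaks of replicate 1 and of replicate 2, in classes of 10 percentage points, with the median as a dashed line. The median is 89.2% in replicate 1 and 71.9% in replicate 2, and the lowest class includes the 12 and 37 regions met by no peak of that replicate.

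Most broad regions met by both replicates held a single peak of each, and where only 1 replicate was in pieces it was more often replicate 2. Of the 359 regions met by both replicates, 193 (53.8%) held a single peak of each, 88 (24.5%) a single peak of replicate 1 and several of replicate 2, 36 (10.0%) the reverse, and 42 (11.7%) several of each. Several replicate 2 peaks were found in 28 of the 37 regions of 3000 bp or more (75.7%) and in 17 of the 137 regions under 1200 bp (12.4%). For replicate 1 these counts were 10 (27.0%) and 18 (13.1%). A peak of 1000 bp or more overlapped the region in both replicates for 144 of the 403 broad regions (35.7%), in replicate 1 alone for 106 (26.3%), in replicate 2 alone for 27 (6.70%) and in neither for 126 (31.3%). Among the narrower regions the shares were 0.89%, 2.14%, 0.79% and 96.2%, and over all regions 2.82% had such a peak in both replicates. Width in the series-level list chose the members, so a higher share of wide replicate peaks in them is a description.

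In the 193 regions with a single peak from each replicate, the median peak was 0.937 of the region's width in replicate 1 and 0.833 in replicate 2. The 1701 narrower regions of this kind had ratios of 1.08 and 1.06. Because the classes were divided by the region's own width, which is the divisor of these ratios, nothing is read from the difference. Midpoints of peak and region lay a median of 66.5 bp apart in replicate 1 and 108.5 bp in replicate 2, against 33.0 and 38.5 bp for the narrower regions. A wider region leaves room for a larger shift. Median region widths were 1232 bp and 461 bp, so nothing is read from this difference either.

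The widest members show these forms one by one. The widest of all, II:10541680-10553052 (11373 bp, score 74.43), was a single peak in both replicates, of 11017 bp in replicate 1 and 11100 bp in replicate 2, each with the replicate score of 3100 at which many of the strongest peaks are tied. I:7078983-7085278 (6296 bp, score 83.03), V:9338498-9344646 (6149 bp, score 71.17) and III:5939080-5944254 (5175 bp, score 52.01, the widest on its chromosome) were likewise single peaks with 3100 in each replicate, and replicate peaks covered at least 98.2% of their bases. In these 4 regions the replicates did not differ in form. The peaks over I:7078983-7085278, of 7898 bp in replicate 1 and 8034 bp in replicate 2, also covered the next broad region, I:7085339-7086867.

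IV:4467792-4473893 (6102 bp, score 44.29) was a single peak of 6161 bp in replicate 1, scored 3100, and 6 peaks of at most 1522 bp in replicate 2, with a highest score of 1344.39. V:5838644-5844168 (5525 bp, score 46.04) was a single peak of 6258 bp in replicate 1, also scored 3100, and 4 peaks in replicate 2 that covered 53.7% of it, with a highest score of 347.87. In both, replicate 2 was the weaker and the more broken. I:7865988-7872606 (6619 bp, score 179.72) and II:693683-699177 (5495 bp, score 123.09) were a single peak in replicate 1 and 2 peaks in replicate 2, and reached 3100 in each.

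X:16929235-16939962 (10728 bp, score 151.27) held 3 peaks of replicate 1 and 4 of replicate 2, which covered 98.6 and 94.8% of it. II:5335440-5341320 (5881 bp, score 40.65) held 4 peaks of replicate 1 and 3 of replicate 2. Here the piece count was alike and replicate 2 had the higher score, with 1605.69 against 822.92 in replicate 1. The strongest region on chromosome III, III:424504-428054 (3551 bp, score 157.84), was covered to 91.3% by a replicate 1 peak and to 35.1% by a replicate 2 peak.

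The highest-scoring broad regions were compact by comparison. The highest of all, X:805947-807321 (1375 bp, score 199.82), was a single peak with 3100 in each replicate, 885 bp wide in replicate 1 and 1122 bp in replicate 2. The highest on IV, IV:8072899-8074471 (1573 bp, score 188.32), likewise reached 3100 in each, with peaks of 1492 and 1191 bp. The highest on II, II:8459683-8461068 (1386 bp, score 184.75), scored 2953.56 in replicate 1 and 2180.75 in replicate 2. On V the highest was V:15295863-15297074 (1212 bp, score 183.4), with 2185.23 in replicate 1 and 2098.29 in replicate 2. On chromosome I it was I:7865988-7872606, which is also among the widest.

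The second widest member had the lowest score of the 10 widest. I:15060405-15071198 (10794 bp) had a score of 6.32, at the 40.1 percentile of the list, and was covered by a replicate 1 peak of 11183 bp with a score of 397.3. Replicate 2 listed 0 peaks there. Only 1 further row of the series-level list followed it on chromosome I, ending at base 15072402.

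In the broad regions met by both replicates, the highest replicate scores ran together, as they did in the narrower ones. Spearman's rho was 0.721 over the 359 broad regions and 0.530 over the 278 of them below 3100 in both, against 0.647 over 1762 narrower regions, as a description over regions of the same pair of libraries. A score of 3100 or more in both replicates was reached in 58 broad regions (14.4%, interval 11.3 to 18.2%), against 7 narrower ones and 0.893% of all regions. Outside ties, replicate 1 had the higher score in 195 broad regions and replicate 2 in 108, against 677 and 1078 narrower ones.

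The density of broad regions varied less between chromosomes than that of narrower ones. Chromosome IV carried 4.80 broad regions per Mb, III 4.28, V 4.03, I 3.72, II 3.67 and X 3.61, so that the highest density was 1.33 times the lowest. For the narrower regions the order was III with 94.2 per Mb, I 86.5, II 68.4, IV 66.6, X 58.7 and V 49.2, a ratio of 1.91. V carried the fewest narrower regions per Mb and the largest share of broad ones. Of all regions on V, 7.57% were broad (interval 6.15 to 9.27%), against 4.12% on I (interval 3.19 to 5.31%) and 4.34% on III (interval 3.38 to 5.56%). Broad regions made up 32.2% of the bound bases on V and 16.9% of those on III.

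The replicate lists showed part of the same order in their own peaks of 1000 bp or more. Such peaks made up 16.8% of the replicate 1 list on V, 15.8% on X, 14.2% on IV, 12.9% on II, 10.8% on III and 8.30% on I. In replicate 2 the shares were 7.16% on X, 6.92% on IV, 6.83% on V, 5.95% on II, 5.37% on III and 5.01% on I. Chromosomes I and III had the lowest shares in all 3 lists. V came first in the series-level list and in replicate 1, and after X and IV in replicate 2, within less than 1 percentage point. Broad regions on V were also the weakest by median score, at 23.45, followed by III with 27.9. Those on II had 46.1, on IV 43.2, on X 42.15 and on I 39.3. Median scores of the narrower regions ran from 7.08 on X to 8.05 on I.

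**Figure D4:**
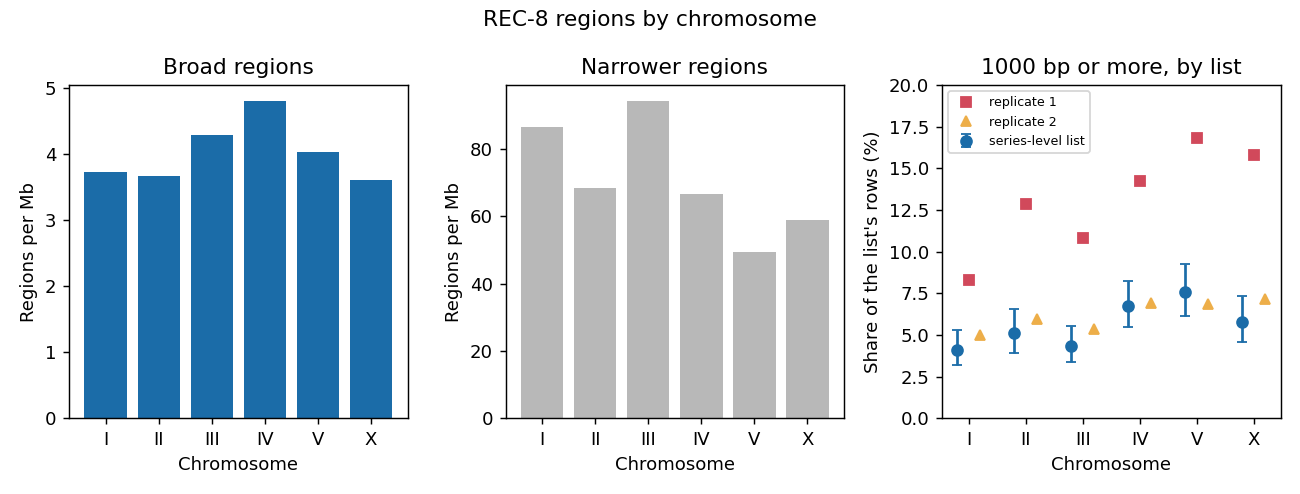
Broad and narrower regions per Mb on each chromosome (left and middle), and the share (%) of rows of 1000 bp or more in the series-level list, with 95% Wilson intervals, and in each replicate list (right). Broad regions run from 3.61 to 4.80 per Mb and narrower ones from 49.2 to 94.2, and chromosomes I and III have the lowest shares in every list.

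X held 64 of the broad regions (15.9%, interval 12.6 to 19.8%), against 1040 of the narrower ones (15.1%) and 15.2% of all regions, a share near the background. In the replicate lists, 17.2% and 18.1% of the peaks of 1000 bp or more lay on X, against 13.6% and 15.5% of the other peaks, with overlapping intervals in each list. On X, 32 of the 64 broad regions were in the highest score decile (50%) and 60 were met by both replicates (93.8%), while V had 29 of 84 (34.5%) and 71 of 84 (84.5%). Neither chromosome was at the extreme in the highest decile, which held 53.6% of the broad regions on II and 52.4% on IV. On I the share was 46.4% and on III 30.5%. The shares met by both replicates on the other chromosomes ran from 87.5% on I to 90.5% on IV.

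The shares of broad and narrower regions in chromosome centres had overlapping intervals. In C. elegans the autosome centres are gene-dense and poor in crossovers, and the arms rich in both crossovers and repeats. The central of 3 equal parts held 138 of the 403 broad regions (34.2%, interval 29.8 to 39.0%), against 2552 of the 6877 narrower ones (37.1%, interval 36.0 to 38.3%) and 37.0% of all regions. The gap between the classes was smaller than that between replicates, whose peaks of 1000 bp or more had 33.2% and 39.4% in the centre, against 34.8% and 39.8% of their other peaks. Within chromosomes, 1 of 18 parts had intervals that did not overlap between the classes, unadjusted for the 18 comparisons. It was the right part of IV, with 37 of 84 broad regions (44.0%, interval 33.9 to 54.7%), against 334 of 1165 narrower ones (28.7%, interval 26.2 to 31.3%). In the central part of X lay 14 of 64 broad regions (21.9%, interval 13.5 to 33.4%), against 30.8% of the narrower ones. Of 10 equal segments of chromosome length, the leftmost held 11.7% of the broad regions and the next 5.71%, against 8.51% and 7.79% of the narrower ones.

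**Figure D5:**
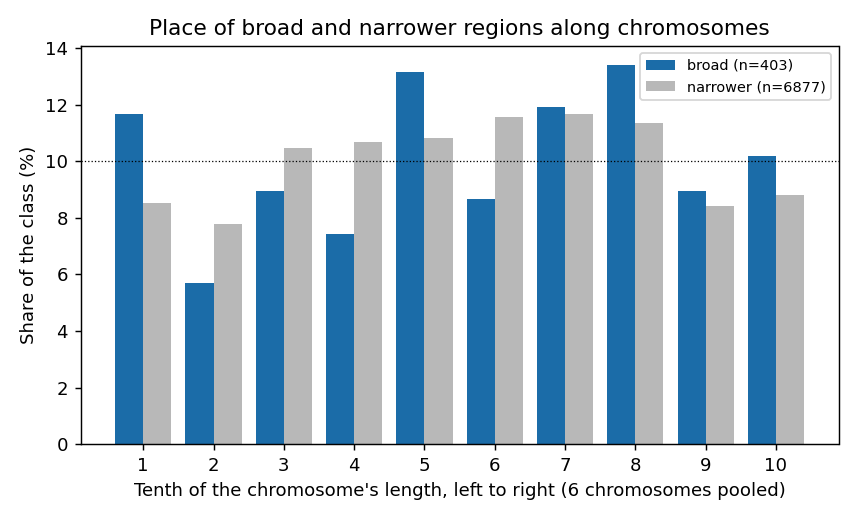
Share (%) of the 403 broad and of the 6877 narrower regions in each of 10 equal segments of chromosome length from left to right, with the 6 chromosomes pooled and a dotted line at an even share of 10%. Broad regions range from 5.71% in the second segment to 13.4% in the eighth, and narrower ones from 7.79% to 11.7%.

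At a finer scale, 44 of 201 bins of about 500 kb (21.9%) held 0 broad regions. Narrower regions are far more numerous, with a median of 33 in a bin, so that empty bins are not compared between the classes. A bin held 2.01 ± 1.70 broad regions (SD, n = 201 bins) and at most 8, a number reached in IV:14994548-15494365 and V:992666-1488998. Bin counts of the classes had a Spearman's rho of 0.307 over the 201 bins, which share libraries and chromosomes. The longest stretch without a broad region, II:1150510-4260619, measured 3.11 Mb and held 110 narrower regions with scores up to 126.77. On IV it was 5590522 to 7393353 (1.80 Mb, 126 narrower regions) and on V 1812304 to 3434762 (1.62 Mb, 43 narrower regions). These bins and stretches were chosen after their values were seen.

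Some broad regions lay close to each other. Chained over starts at most 20 kb apart, 167 of the 403 (41.4%) fell into 71 groups, of which 50 held 2 regions, 17 held 3 and 4 held 4. Whether this is more than their number and density give was not tested. The groups of 4 were II:9617046-9647828, with scores of 35.25 to 182.48, V:7912854-7922377, with 7.85 to 144.08, X:4139357-4148393, with 11.18 to 34.50, and V:14830114-14848278, with 9.72 to 31.48. All 4 regions of the groups on II and X were met by both replicates, against 2 of 4 and 3 of 4 in the groups on V.

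Broad regions more often had a close neighbour of any width. Another region started within 5 kb of 325 broad regions (80.6%, interval 76.5 to 84.2%), against 4972 narrower ones (72.3%, interval 71.2 to 73.3%) and 72.8% of all regions. Measured as the gap between edges, which does not include the region's own width, the nearest neighbour lay a median of 0.278 kb away, against 1.43 kb for the narrower regions. A gap of 1 kb or less was found for 286 broad regions (71.0%, interval 66.3 to 75.2%), against 2979 narrower ones (43.3%, interval 42.1 to 44.5%) and 44.8% of all regions. On both sides such neighbours were present for 116 broad regions (28.8%), against 839 narrower ones (12.2%). Counted by side, broad regions had 402 such neighbours, and a region between broad ones was counted for each. Of these neighbours, 334 were narrower and 68 (16.9%) broad. Among the neighbours of narrower regions 8.75% were broad, and of all regions 5.54% were. Of the 402, 326 (81.1%) scored lower than the broad region beside them, against 46.4% of the neighbours of narrower regions. The median score of the 402 was 7.63, near the 7.86 of the whole list. The broad regions' own high scores set how often a neighbour is lower.

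With regions joined over gaps of 1 kb or less, the broad regions lay in 337 stretches with a median span of 2616 bp, of which 117 (34.7%) consisted of the broad region alone. The rule itself sets a minimum of 1000 bp on these spans, and a stretch of more regions has more chances to hold a broad one. Stretches without a broad region numbered 4833, with a median span of 315 bp, and 3898 of them (80.7%) were a single region. The longest stretch, II:10541680-10559589, spanned 17910 bp and held 8 regions, the widest broad region among them. Next came X:16929235-16944201 with 14967 bp and 7 regions. Spans of 5 kb or more occurred in 73 stretches with a broad region and in 5 without.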

How the data were processed

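REC-8 ChIP was measured in 2 libraries and input in 2. Per the labels' protocols, ground worms were crosslinked with EGS, then EGS with formaldehyde, and sonicated. The submitters' processing notes name BWA and ce10. Per the file headers, positions are in WormBase WS220, and the source columns name MACS (replicates) and MACS v2 (series level). Caller settings, the use of input and pooling were not given in the sources used here. Each peak has a score that the authors deposited, of unstated scale, and scores were compared within a list or between the replicate lists. Percentiles of the replicate lists were also set beside those of the series-level list, though the lists differ in score scale and number of peaks. Peaks below a caller's minimum are not listed, so an unmet region can hold weaker enrichment.

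Regions and comparisons were chosen with earlier results of these data known, and no hypothesis was tested. A region was met by a peak sharing 1 bp or more. Chromosomes were taken to reach the furthest listed peak. Named regions are the 10 widest, the 10 highest (given as ranges), the widest and highest of each chromosome, those met by neither replicate, the 2 nearest the threshold on each side and the largest groups. Others were chosen after seeing values. No sequence or gene was assigned, as no WS220 genome was used. Alternatives changed the width minimum, overlap, score, joining, distances and replicates. Python 3.11.15, numpy 2.4.6, scipy 1.17.1, pandas 2.3.3 and matplotlib 3.10.9 were used.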

Additional observations from a re-analysis of the deposited data

Results flagged for a closer look

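Mitochondrial DNA lay outside the comparisons, and the series-level list held 3 rows of 1000 bp or more there, a signal in data not otherwise used. They were 6637, 3670 and 2514 bp wide with scores of 8.24, 6.63 and 8.78. Replicate 2 had 1 mitochondrial peak of 13390 bp and replicate 1 had none.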

How the results depend on the processing

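The share of broad regions met by both replicates (89.08%) was 66.25% when each replicate had to cover at least 50% of a region. That was found for 23.7% of the narrower regions and 26.06% of all regions. With a width of 800 bp or more the share met by both was 85.22%, against 24.01% of the regions below that width. With 1500 bp or more it was 92.05%, against 27.58%. In the upper 50% of the broad regions by score it was 100%. At the midpoint, an alternative chosen after seeing the data, it was 70.47%, against 24.36% of the narrower regions and 26.91% of all regions. With replicate 2 left out, 97.02% of broad regions were met by replicate 1, and with replicate 1 left out, 90.82% by replicate 2. Of the narrower regions these shares were 33.26% and 45.18%. A share met by a single list cannot be below the share met by both, so these values are no check on it. The median score percentile (87.99) was 90.52 at 1500 bp or more and 90.17 to 95.09 in single replicate lists. The central share (34.24%) was 53.35% in the central 50% of each chromosome, against 56.03% of the narrower regions, and 33.24 to 39.38% in single replicate lists. Neighbours started within 2 kb of 62.03% of broad regions, against 52.13% of narrower and 52.68% of all regions. Within 10 kb these shares were 89.08%, 83.86% and 84.15%. The share met by replicate 1 alone (7.94%) was 24.32% at 50% coverage and 19.85% at the midpoint, both added after seeing the data. Over all regions the shares at these 2 settings were 8.74% and 8.24%. The share on X moved less than its interval throughout, from 15.27 to 18.14%. Joining rows over gaps of 200 bp or less gave 541 broad regions, a minimum of 800 bp gave 609 and of 1500 bp 176. No paired analysis was possible because replicate numbers are shared only between ChIP and input, no input peak list was analysed here, and so no groups of samples were compared.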

Other observations

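Some broad regions stood high in a replicate list but low in the series-level list, a comparison chosen after the values were seen. A replicate score in the upper 10% of its list went with a series-level score below the 60 percentile in 9 of 403 broad regions (2.23%, interval 1.18 to 4.19%), against 50 of 6877 narrower ones (0.73%, interval 0.55 to 0.96%). Only a region met by a strong replicate peak can qualify. Replicate 1 met 97.0% of the broad and 33.3% of the narrower regions, with median highest scores of 848.1 and 162.2 where met. Nothing is therefore read from the difference between these shares. The lists also differ in score scale and number of peaks, so a percentile in a replicate list is not like the same percentile in the series-level list. On II, 1145862 to 1146983 and 1148982 to 1150509 scored 807.67 and 1559.59 in replicate 2, had series-level scores of 5.00 and 6.92, and met 0 peaks of replicate 1. They lie in a stretch of 18 regions, II:1140793-1153587, in which no series-level score exceeded 22.47. On V, 7916941 to 7918313 and 11819413 to 11822100 scored 1426.77 and 1559.97 in replicate 1 and met 0 peaks of replicate 2.

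Of the 9, 3 lay together on V, at 17120578 to 17122066, 17124207 to 17125898 and 17129666 to 17130683. Their series-level scores were 8.08, 8.53 and 8.07, while replicate 1 peaks of 6803 and 4172 bp scored 1925.18 and 1624.3 and replicate 2 peaks of 6719 and 4051 bp scored 2529.71 and 1420.54. A second tandem array of rRNA genes is known on chromosome V of C. elegans, and whether these regions lie in it was not tested, as no annotation of the files' build was used.

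Wide replicate peaks did not always appear as broad regions. Of the 343 peaks of 1000 bp or more in replicate 1, 251 (73.2%) met a broad region, 39 met only several narrower regions, 34 met only 1 narrower region and 19 met none. In replicate 2 the counts were 178 of 226 (78.8%), 23, 25 and 0. The widest such peak without any region, IV:4416389-4422129 in replicate 1, measured 5741 bp and scored 170.96. The peak V:7916826-7925045 of replicate 1 (8220 bp) met 12 separate regions, of which 2 were broad.

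The low-scoring region I:15060405-15071198 lies at the right end of chromosome I, where C. elegans carries its main tandem array of ribosomal RNA genes. In the RefSeq annotation, which is of another build (WBcel235), 4 of the last 10 genes of chromosome I are rRNA genes. Its coordinates were not used, and whether the region lies in the array was not tested.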
